A study of Mus musculus with 10 samples.

Results

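Casp1, Casp4, Casp8, Gsdmd, Pycard, Mlkl, Ripk1 and Ripk3 are 8 genes of inflammatory and lytic cell death, taken by name from the 22053 genes of an RNA-seq table of mouse kidney glomeruli. All 8 were found by their Ensembl identifiers and all 8 were expressed highly enough to be tested. The table holds 5 libraries from mice with wild-type Col4a3 and 5 from mice with the Col4a3 p.G799R variant, a missense change in the alpha 3 chain of type IV collagen of the glomerular basement membrane. The sources used here do not give zygosity, age, sex, strain or the isolation of the glomeruli. Nor do they tie each library to its own mouse, and the p-values below then rest on a spread between libraries that may be technical.

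In pyroptosis, a sensor assembles an inflammasome with the adaptor ASC (the product of Pycard), which activates caspase-1. Caspase-1, or the lipopolysaccharide-sensing caspase encoded by mouse Casp4, then cuts gasdermin D (Gsdmd), whose freed part opens pores in the plasma membrane, and caspase-1 also matures interleukin-1 beta and interleukin-18. In necroptosis, the kinases RIPK1 and RIPK3 form an amyloid-like complex, RIPK3 phosphorylates the pseudokinase MLKL, and MLKL breaks the membrane, while caspase-8 holds this branch in check by cleaving both kinases. Casp1, Casp4, Casp8 and Mlkl are known to be induced by interferon and were read here against Gsdmd, Pycard, Ripk1 and Ripk3.

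Levels are FPKM, fragments scaled by transcript length and library size, as deposited. Absolute depth is unknown, and FPKM sums ran from 320720 to 340875 per library. Differences are G799R minus wild type on the log2(FPKM + 1) scale, which understates changes of low genes, and a gene is called when its limma p, adjusted by Benjamini-Hochberg over the 13117 tested genes, is under 0.05. In these libraries 40.5% of all tested genes were called higher and 19.3% lower. The G799R libraries held far less tubule RNA. All 26 proximal tubule markers were called lower, with summed levels of 1071 to 2762 FPKM against 8859 to 16501. The 26 podocyte markers were all called higher, their sums lying at 7077 to 9334 FPKM against 4331 to 5191. In bulk tissue, fewer cells of a type and less RNA per cell cannot be told apart. Nor can either be told apart from unequal carry-over of tubule into the isolated glomeruli. Each member is therefore also given under glomerular marker scaling, which sets the mean log2 level of podocyte, endothelial and mesangial markers equal in all libraries. It assumes that these markers do not differ per cell between the groups, which was not tested. It divides all genes of a library by the same factor, so it does not remove RNA of tubule or myeloid cells. Under that scaling 4.0% of all genes were called higher and 64.6% lower, and the median of all genes moved from 0.17 to −0.43. Under median-of-ratios scaling, which centres the bulk of genes, the shares were 23.3% and 25.5% and the median was 0.02.

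As deposited, 7 of the 8 members were called higher in G799R glomeruli and none lower, against a background of 40.5% called higher. Their median log2 difference was 0.67, beside 0.17 for all tested genes. The groups did not overlap for 5 members (Casp8, Gsdmd, Mlkl, Ripk1 and Ripk3), where 26.1% of all tested genes lay wholly higher. The pair of membrane executioners, Mlkl and Gsdmd, had the largest differences, and these were the members called higher also under glomerular marker scaling, while Ripk1 was then called lower. Under median-of-ratios scaling 6 members were called higher, and Casp4 was the one lost.

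**Figure D1:**
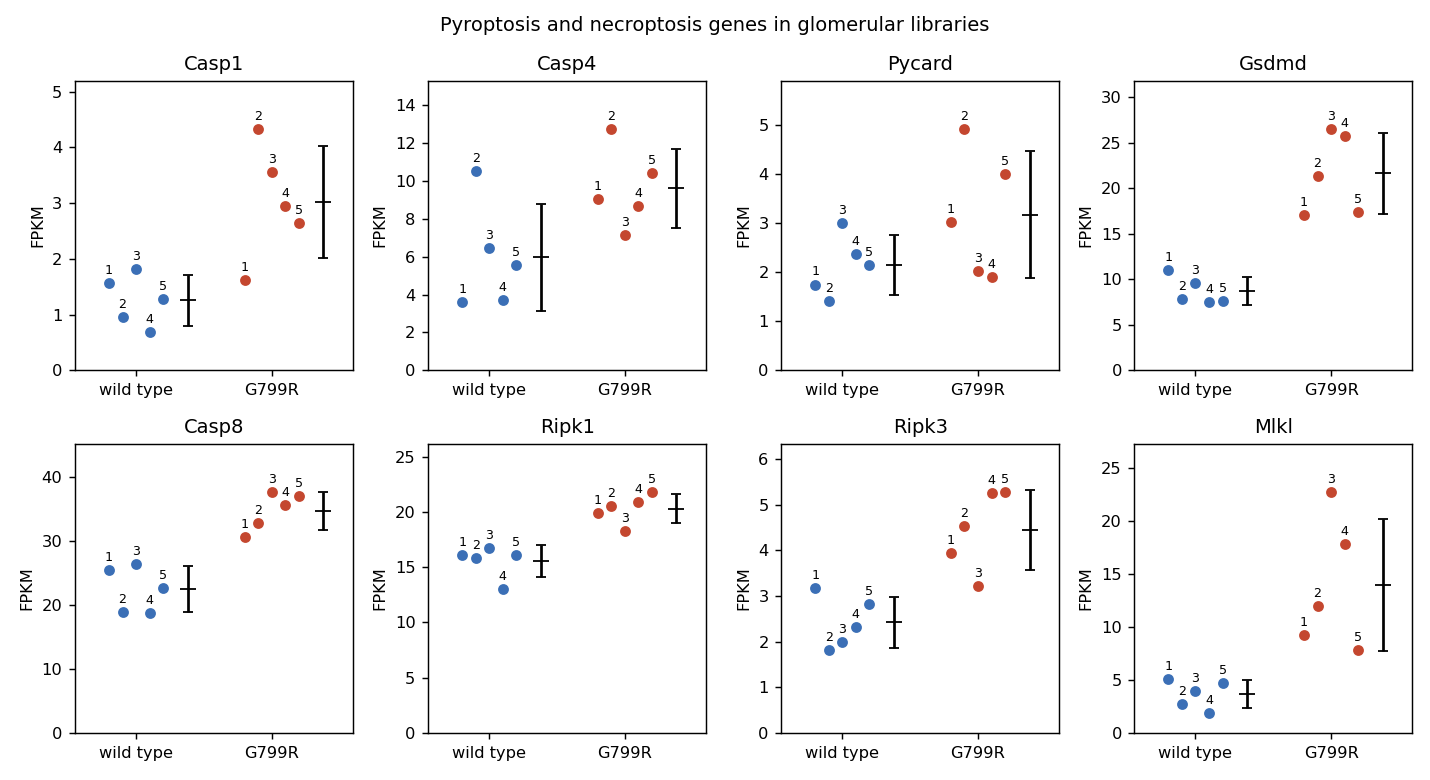
FPKM of each of the 8 genes in each library (points, numbered by replicate; blue wild type, red G799R), with the group mean and SD beside the points (n = 5 each). The groups do not overlap for Gsdmd, Casp8, Ripk1, Ripk3 and Mlkl, and overlap for Casp1, Casp4 and Pycard.

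Mlkl encodes the pseudokinase that ruptures the membrane at the end of necroptosis, and it showed the largest difference of the 8. The gene (ENSMUSG00000012519, protein-coding) lies on the minus strand of chromosome 8 at 111311797 to 111338177 in GRCm38. Wild-type libraries 1 to 5 stood at 5.11, 2.71, 3.93, 1.87 and 4.70 FPKM, and G799R libraries 1 to 5 at 9.26, 12, 22.7, 17.8 and 7.83 FPKM. Every G799R library was above every wild-type library, and G799R libraries 3 and 4 stood far above the others. The mean rose 3.79-fold, from 3.66 ± 1.36 to 13.9 ± 6.21 FPKM (SD, n = 5 each), with a log2 difference of 1.63 ± 0.29 (SE) and a limma adjusted p of 0.000612. Under glomerular marker scaling the difference was 1.05 ± 0.24 (SE; adjusted p = 0.00213), and without G799R libraries 3 and 4 it was 1.23 (adjusted p = 0.00336).

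Gsdmd encodes the pore-forming protein of pyroptosis and had the second largest difference. The gene (ENSMUSG00000022575) lies on the plus strand of chromosome 15 at 75862327 to 75867408. Its levels were 11, 7.85, 9.59, 7.5 and 7.59 FPKM in wild-type libraries 1 to 5 and 17.0, 21.4, 26.5, 25.8 and 17.4 FPKM in G799R libraries 1 to 5. The groups were well apart, and libraries 3 and 4 were again the highest of the G799R group. The mean rose 2.48-fold, from 8.71 ± 1.54 to 21.6 ± 4.46 FPKM, with a log2 difference of 1.21 ± 0.14 (SE; limma adjusted p = 4.31e-05). Glomerular marker scaling left a difference of 0.57 ± 0.12 (SE; adjusted p = 0.00117). Mlkl and Gsdmd were the members with a log2 difference of at least 1, a size that 3.20% of all tested genes reached with a call. The log2(FPKM + 1) scale understates changes of low genes, and Casp1, a lower gene, rose 2.41-fold in mean.

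Casp1 encodes the inflammasome protease and had the lowest mean of the 8 in both groups. In G799R its mean was close to that of Pycard, which stood above it in 3 of 5 libraries. It lies on the plus strand of chromosome 9 at 5298517 to 5307265 (ENSMUSG00000025888). Wild-type libraries 1 to 5 had 1.56, 0.947, 1.81, 0.681 and 1.27 FPKM, and G799R libraries 1 to 5 had 1.63, 4.33, 3.56, 2.94 and 2.65 FPKM. G799R library 1 fell inside the wild-type range and the other 4 were above it. The mean went from 1.25 ± 0.46 to 3.02 ± 1.01 FPKM, 2.41-fold, with a log2 difference of 0.82 ± 0.20 (SE) and a limma adjusted p of 0.00413. Under glomerular marker scaling the difference was 0.38 ± 0.17 (SE) and was not called (adjusted p = 0.0629).

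Casp4, the neighbour of Casp1, spread widely within groups. It lies on the plus strand of chromosome 9 at 5308828 to 5336783 (ENSMUSG00000033538), with 1.56 kb between the annotated genes and Casp12 a further 8.65 kb along. These genes are related in sequence, so reads shared between them make the single values less certain. Casp4 stood at 3.59, 10.5, 6.44, 3.73 and 5.58 FPKM in wild-type libraries 1 to 5, and at 9.06, 12.7, 7.16, 8.68 and 10.4 FPKM in G799R libraries 1 to 5. Wild-type library 2 lay above all G799R libraries but library 2, and G799R library 3, the highest in Mlkl, was the lowest in Casp4. The mean was 1.61-fold higher in G799R, 9.61 ± 2.10 against 5.98 ± 2.83 FPKM, with a log2 difference of 0.67 ± 0.24 (SE; limma adjusted p = 0.0295). The call was lost when wild-type library 1, 4 or 5 or G799R library 2 or 5 was left out (0.54 to 0.67, adjusted p = 0.0514 to 0.0733), and under median-of-ratios scaling (0.51, adjusted p = 0.101). Glomerular marker scaling brought the difference to 0.06 ± 0.26 (SE; adjusted p = 0.844).

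Pycard, the gene of the adaptor ASC, was the member that was not called. It lies on the minus strand of chromosome 7 at 127989708 to 127993867 (ENSMUSG00000030793). Its values were 1.75, 1.41, 3.01, 2.38 and 2.15 FPKM in wild-type libraries 1 to 5 and 3.02, 4.92, 2.03, 1.91 and 4.0 FPKM in G799R libraries 1 to 5. G799R libraries 3 and 4, the highest in Mlkl and Gsdmd, were here the lowest of their group and inside the wild-type range. The log2 difference was 0.38 ± 0.21 (SE; limma adjusted p = 0.138), the means being 2.14 ± 0.61 in wild type and 3.18 ± 1.29 in G799R. Leaving out those 2 libraries, the lowest of the group in Pycard, necessarily raised the difference, to 0.67 (adjusted p = 0.0140). All 8 members were called higher there, where 37.1% of all genes were called higher and 17.2% lower. As the rise follows from the libraries removed, that call of Pycard adds no support. Under glomerular marker scaling the Pycard difference turned to −0.11 ± 0.22 (SE; adjusted p = 0.664).

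Casp1 and Pycard are known to be expressed in myeloid cells, whose markers were also higher in G799R libraries. Of 27 tested macrophage and myeloid markers 16 were called higher and none lower, and under glomerular marker scaling 9 were called higher. Their summed level ran from 98.2 to 213 FPKM in wild type and was 377, 406, 335, 248 and 483 FPKM in G799R libraries 1 to 5, and none of the 28 markers was at 0 in all libraries. The part of these cells in the differences of Casp1 and Pycard was not tested.

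Casp8 encodes the protease that starts apoptosis from death receptors and restrains necroptosis, and it was the highest of the 8 in both groups. It lies on the plus strand of chromosome 1 at 58795374 to 58847503 (ENSMUSG00000026029). Wild-type libraries 1 to 5 had 25.5, 18.9, 26.4, 18.7 and 22.6 FPKM, and G799R libraries 1 to 5 had 30.6, 32.7, 37.6, 35.6 and 37.0 FPKM. The 5 G799R libraries lay close together and above all wild-type libraries. The mean rose 1.55-fold as deposited, from 22.4 ± 3.58 to 34.7 ± 2.98 FPKM, a log2 difference of 0.62 ± 0.11 (SE; limma adjusted p = 0.000514) that turned to −0.05 ± 0.09 (SE; adjusted p = 0.616) under glomerular marker scaling.

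Ripk1 encodes the kinase that relays death receptor signals to survival, apoptosis or necroptosis. It lies on the plus strand of chromosome 13 at 34002363 to 34037147 (ENSMUSG00000021408). The wild-type values were 16.1, 15.9, 16.7, 13.1 and 16.1 FPKM in libraries 1 to 5, and the G799R values 19.9, 20.5, 18.3, 20.9 and 21.8 FPKM. It varied least of the 8 within groups, with coefficients of variation of 9.26% and 6.50%, and the groups did not overlap. It also had the smallest difference, 0.36 ± 0.08 (SE; limma adjusted p = 0.00194), a 1.3-fold higher mean as deposited that became a called difference of −0.29 ± 0.10 (SE; adjusted p = 0.0213) under glomerular marker scaling, where the median of all genes was −0.43.

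Ripk3, the kinase gene that acts on MLKL, was low in both groups. It lies on the minus strand of chromosome 14 at 55784995 to 55788865 (ENSMUSG00000022221). Levels were 3.17, 1.82, 2.0, 2.31 and 2.82 FPKM in wild-type libraries 1 to 5 and 3.93, 4.53, 3.22, 5.26 and 5.28 FPKM in G799R libraries 1 to 5. The lowest G799R library, library 3, stood just above the highest wild-type library. The mean rose 1.83-fold, from 2.42 ± 0.56 to 4.45 ± 0.89 FPKM, with a log2 difference of 0.67 ± 0.14 (SE; limma adjusted p = 0.00216), and under glomerular marker scaling the difference was 0.14 ± 0.15 (SE; adjusted p = 0.406).

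**Figure D2:**
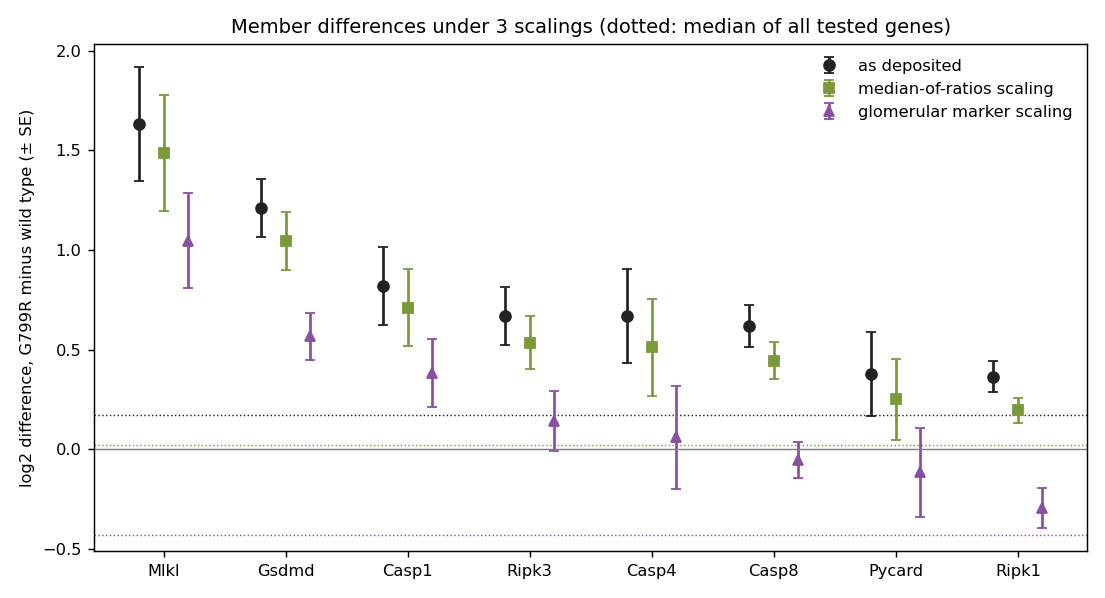
Log2 difference of each of the 8 genes (G799R minus wild type; points with bars of ± SE, n = 5 each) as deposited, under median-of-ratios scaling and under glomerular marker scaling; dotted lines mark the median of all 13117 tested genes under each. Mlkl, Gsdmd and Casp1 stay above 0 by more than their SE under all 3, while Casp8, Pycard and Ripk1 are below 0 under glomerular marker scaling.

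FPKM is per length, so the 8 genes can be ordered by level within a group. In wild type the order of mean FPKM was Casp8, Ripk1, Gsdmd, Casp4, Mlkl, Ripk3, Pycard and Casp1. Casp8 was above Ripk1, and Ripk1 above Gsdmd, in all 5 libraries with no overlap of their ranges, while each later neighbour overlapped the one before it. In G799R the order of mean FPKM was Casp8, Gsdmd, Ripk1, Mlkl, Casp4, Ripk3, Pycard and Casp1. Gsdmd stood above Ripk1 in 3 of 5 G799R libraries and in 0 of the wild-type libraries, where Ripk1 was higher in all 5. Mlkl was above Casp4 in 3 of 5 G799R libraries, and in wild type Casp4 was above Mlkl in 4 of 5.

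The interferon-inducible members had the higher median difference, by a gap that depended on single libraries and on where Gsdmd was counted. The median log2 difference of Casp1, Casp4, Casp8 and Mlkl was 0.74, and that of Gsdmd, Pycard, Ripk1 and Ripk3 was 0.52. The gap was 0.22, and the SD between libraries of a group, in the mean of the former minus the mean of the latter, was 0.22. That SD is the spread of single libraries in a contrast of means. It is not the standard error of the gap, which is one of medians and was not tested. Leaving out 1 library at a time gave gaps of 0.10 (without wild-type library 4) to 0.33 (without wild-type library 2), with 0.14 without G799R library 3, and a pseudocount of 0.1 gave 0.31. With Gsdmd, whose basal transcription is known to depend on interferon regulatory factors, counted among the inducible genes, the medians were 0.82 and 0.38, a gap of 0.44. Without G799R libraries 3 and 4 the medians of the first split were 0.78 and 0.69, a gap of 0.09. Within the inducible members the differences ran from 0.62 (Casp8) to 1.63 (Mlkl), and within the others from 0.36 (Ripk1) to 1.21 (Gsdmd).

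The interferon response, summed over a gene list, was higher in every G799R library than in wild type, to very unequal degrees. All 31 tested genes of an interferon response list were called higher, with a median log2 difference of 2.71, and all 31 also under glomerular marker scaling (2.07). Their summed level ran from 203 to 367 FPKM in wild type and was 1203, 1573, 5388, 3881 and 718 FPKM in G799R libraries 1 to 5. In G799R library 5, Ifit1, Ifi44 and Mx1 stood at 9.42, 13.5 and 0.992 FPKM, inside the wild-type range. Wild-type library 5 had 9.86, 15.6 and 1.29 FPKM in these genes. In every other gene of the list, all G799R libraries, library 5 included, lay above all wild-type libraries. Irf7, a transcription factor of this response, stood at 73.4, 89.6, 768, 384 and 20.1 FPKM in G799R libraries 1 to 5. Its wild-type range was 3.83 to 10.2 FPKM. Irf1, which acts mainly downstream of interferon gamma, varied less, at 47.6, 80.1, 97.2, 75.9 and 52.4 FPKM against 19.0 to 25.3 FPKM in wild type.

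From highest to lowest, the G799R libraries were ordered 3, 4, 2, 1 and 5 in Mlkl, the same order as in Irf7. Gsdmd had the order 3, 4, 2, 5 and 1, with the same libraries in its first 3 places. Ripk1 and Ripk3 both ran 5, 4, 2, 1 and 3, with the library highest in interferon genes at the bottom. Casp8 ran 3, 5, 4, 2 and 1, with library 5, the lowest in interferon genes, next to the top. Casp1, Casp4 and Pycard were highest in library 2. With 5 libraries these orders are a description and were not tested.

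**Figure D3:**
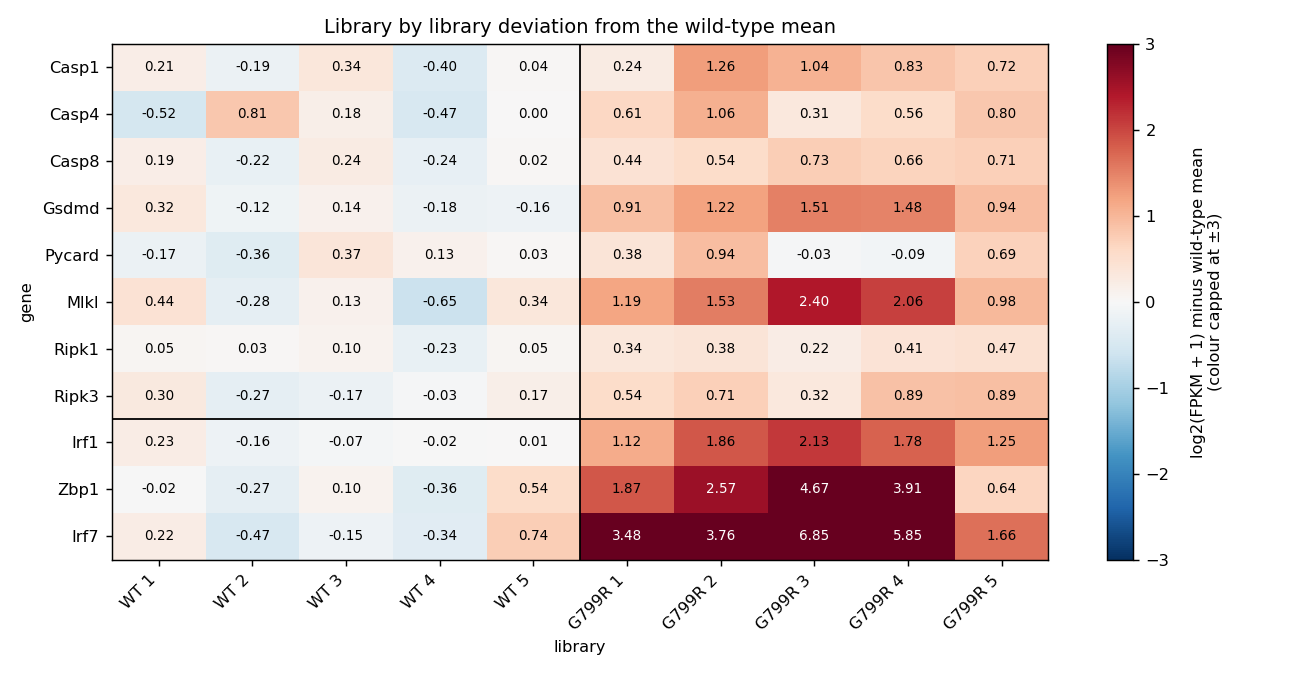
Each cell gives log2(FPKM + 1) minus the wild-type mean of that gene, by library (columns, 5 wild type then 5 G799R), for the 8 genes (upper rows) and 3 interferon-related genes (lower rows); colour is capped at ±3. G799R libraries 3 and 4 reach 2.40 and 2.06 in Mlkl and stand at −0.03 and −0.09 in Pycard.

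For Mlkl and Gsdmd, the genes most like each in library-to-library pattern were read. Likeness was Pearson's r of deviations from the group means over the 10 libraries, among genes averaging 5 FPKM or more, and is a description of values that share their libraries. Closest to Mlkl were Tlr3, an endosomal receptor for double-stranded RNA (r = 0.96), Slfn5, a Schlafen family gene (0.95), and Adar, the RNA-editing adenosine deaminase (0.95), of 9153 genes compared. The 3 were called higher, with log2 differences of 0.92, 1.15 and 1.43. Closest to Gsdmd was Nmi, an interferon-inducible gene (r = 0.95; log2 difference 0.93), before Arf4 and Rcn1 (0.95 and 0.94).

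A plain ratio of 2 members in the same library does not move when the library is rescaled. With a constant added to both genes it can move somewhat, most for low genes. Of 5 such ratios (each with 0.1 FPKM added to both genes), none differed between the groups after adjustment over the 5, by an exact two-sided permutation test that allows no p below 0.00794; 3 had an unadjusted p under 0.05. The ratio of Mlkl to Ripk3 was 0.817 to 1.92 in wild type and 1.47 to 6.87 in G799R, and it was higher in G799R by a log2 difference of 1.02 ± 0.42 (SE; exact permutation p = 0.0317, adjusted 0.0794). Library 3 had the highest of these ratios and library 5, at 1.47, lay inside the wild-type range. The ratio of Ripk3 to Ripk1 was 0.120 to 0.202 against 0.181 to 0.255 (log2 difference 0.47 ± 0.18 SE, exact permutation p = 0.0476, adjusted 0.0794), and that of Casp8 to Ripk1 was 1.19 to 1.58 against 1.53 to 2.05 (0.25 ± 0.10 SE, exact permutation p = 0.0317, adjusted 0.0794). Gsdmd to Casp1 differed by 0.09 ± 0.24 (SE; exact permutation p = 0.738), with ranges of 5.06 to 9.72 and 4.85 to 9.93. Casp4 to Casp1 differed by −0.44 ± 0.43 (SE; exact permutation p = 0.349), with 2.23 to 10.2 in wild type and 1.98 to 5.31 in G799R.

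**Figure D4:**
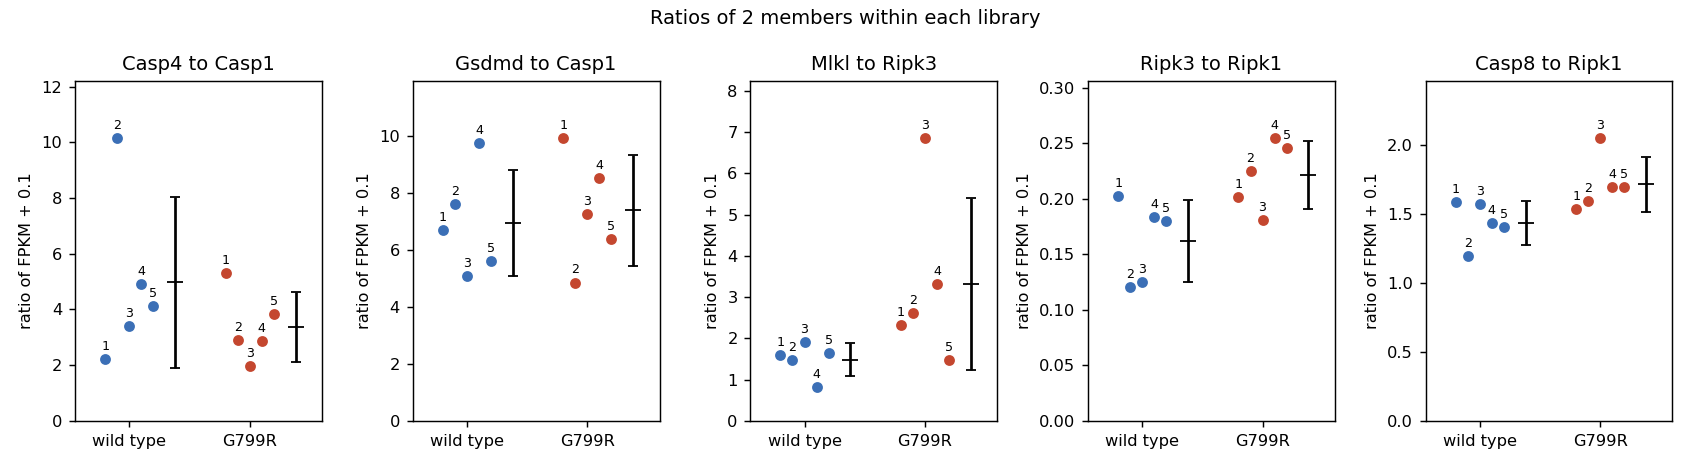
Ratio of FPKM + 0.1 of 2 members within each library (points, numbered by replicate), with the group mean and SD (n = 5 each). All 5 ratios overlap between the groups, and the ratio of Mlkl to Ripk3 reaches 6.87 in G799R library 3.

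Promoters were read because the order of the G799R libraries in Mlkl was that of Irf7. RefSeq windows of 250 bases before to 50 after the start (GRCm38.p6) were matched for 7 members (all but Gsdmd), in 9 windows. Both strands were searched for the interferon-stimulated response element (GAAA and GAAA with 2 free bases between) and the palindromic STAT site (TTC and GAA with 3 free bases between). Among all 27025 genes with such windows, 3.99% hold the first motif and 9.55% the second, and of 23 genes of the interferon list 12 hold the first and 6 the second. Among the 7 members, Ripk1 was the one with a match, in 1 of its 2 windows. Below are the window of Mlkl, the member with the largest difference, which holds neither motif, and that of Ripk1, the member with the smallest, on the minus strand at chr8:111338206-111338455 and the plus strand at chr13:34002624-34002878. They are written 5′ to 3′, ending at the last base before the start for Mlkl and 5 bases past it for Ripk1, and capitals mark the motifs: 2 TTCCCGGAA matches, which begin at −108 and −11 from the start, and GAAATCGAAA, which begins at −5 and overlaps the second of them.
Mlkl: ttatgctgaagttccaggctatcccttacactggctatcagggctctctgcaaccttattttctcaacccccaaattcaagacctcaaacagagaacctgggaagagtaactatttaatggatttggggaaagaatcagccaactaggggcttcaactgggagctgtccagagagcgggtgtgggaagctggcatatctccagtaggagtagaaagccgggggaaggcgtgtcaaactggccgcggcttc
Ripk1: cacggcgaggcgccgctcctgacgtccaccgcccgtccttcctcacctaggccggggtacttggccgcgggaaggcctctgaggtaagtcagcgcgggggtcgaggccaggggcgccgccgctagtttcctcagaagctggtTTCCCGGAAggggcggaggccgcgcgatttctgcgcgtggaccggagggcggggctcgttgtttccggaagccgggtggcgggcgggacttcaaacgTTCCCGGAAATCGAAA
These matches are letters in a window, not sites shown to be bound. The part of such motifs, present or absent, in the differences of the members was not tested.

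The rest of the pathways was read from 8 lists of 102 further genes, of which 82 were tested, with 41 called higher and 9 lower. Over all genes 40.5% were called higher and 19.3% lower, the background for each list below. The median log2 difference of the 82 was 0.33, beside 0.17 for all genes. Under glomerular marker scaling 8 were called higher and 40 lower, where the background was 4.0% and 64.6%.

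Among upstream sensors, 4 of 7 tested inflammasome genes were called higher and 1 lower. Naip2, a receptor for bacterial secretion proteins, was 2.23-fold higher at 3.76 ± 0.69 FPKM (limma adjusted p = 0.000103). Nlrp1b, a sensor of pathogen proteases, was at 1.14 ± 0.16 FPKM against 0.348 ± 0.195, and Naip6 at 0.838 ± 0.106 against 0.271 ± 0.117, both with no overlap. These 3 were called higher also under glomerular marker scaling (0.33, 0.42 and 0.32), but the Naip genes are close paralogs and their single values are uncertain. Nlrp6, a sensor known from epithelia, fell 4.94-fold, from 9.26 ± 2.13 to 1.87 ± 0.54 FPKM (limma adjusted p = 4.91e-06). In wild type it was highest in library 4 (12.5 FPKM) and lowest in library 3 (7.24 FPKM). The proximal tubule sum was likewise highest in wild-type library 4 and lowest in library 3. The part of the lower tubule RNA in the fall of Nlrp6 was not tested. Nlrp3, the best known inflammasome sensor, was low and variable, 0.757 ± 0.367 FPKM in wild type and 1.34 ± 0.88 FPKM in G799R, with no call (adjusted p = 0.218).

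Receptors and adaptors of the necroptosis branch were led by Zbp1, a sensor of Z-form nucleic acid that engages RIPK3 directly. Wild-type libraries 1 to 5 had 0.479, 0.243, 0.606, 0.165 and 1.18 FPKM, and G799R libraries 1 to 5 had 4.47, 7.87, 37.0, 21.5 and 1.33 FPKM. The order 3, 4, 2, 1 and 5 was that of Mlkl, and library 5 stood barely above the highest wild-type library. The log2 difference was 2.73 ± 0.62 (SE; limma adjusted p = 0.00300), and 2.33 (adjusted p = 0.00300) under glomerular marker scaling. Of 28 adaptors and regulators, 15 were called higher and 1 lower, their median being 0.28, and under glomerular marker scaling 1 was higher, Zbp1, and 20 were lower.

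Rnf31, the catalytic subunit of the linear ubiquitin ligase, was 1.91-fold higher at 15.5 ± 3.30 FPKM, with 0.20 (adjusted p = 0.214) under glomerular marker scaling. Birc2, a ubiquitin ligase that marks RIPK1, and Tbk1, a kinase that restrains it, were 1.47-fold and 1.34-fold higher as deposited, and turned to −0.14 and −0.26 under that scaling. Chuk, the gene of IKK alpha, was 1.53-fold lower at 19.6 ± 0.58 against 30.1 ± 3.75 FPKM. As for Nlrp6, the part of the lower tubule RNA in this was not tested.

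Of 11 tested death receptors and ligands, 6 were called higher and 1 lower. Tnfrsf1a, the main receptor of tumour necrosis factor and an entry to RIPK1, was at 56.3, 38.6, 43.0, 30.3 and 40.4 FPKM in wild-type libraries 1 to 5 and at 95.2, 87.2, 101, 85.4 and 115 FPKM in G799R libraries 1 to 5. All G799R libraries were well above the wild-type range, and the gene stayed called under glomerular marker scaling (0.53, adjusted p = 0.000894). Tnfrsf10b, the receptor of the ligand TRAIL, was 2.18-fold higher as deposited and was not called under that scaling (0.36, adjusted p = 0.164). Ltbr, the lymphotoxin receptor gene, was 1.29-fold higher as deposited and −0.32 under that scaling. Tnfrsf21, also a death receptor gene, was 1.90-fold lower at 24.8 ± 1.89 FPKM, and the part of the lower tubule RNA was not tested here either.

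**Figure D5:**
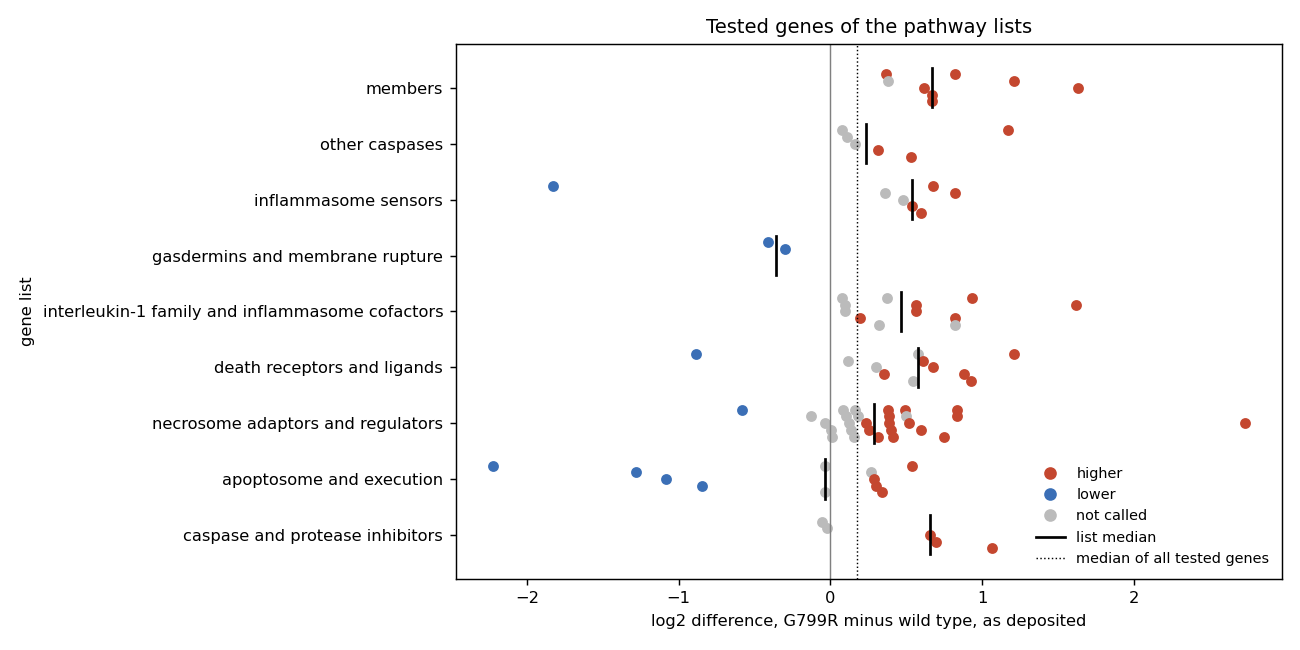
Log2 difference (G799R minus wild type, as deposited) of each tested gene in the 8 members and in 8 pathway lists; red and blue points were called higher and lower by limma, grey points were not called, bars mark list medians and the dotted line the median of all genes. Zbp1 lies farthest to the right at 2.73 and Bid farthest to the left at −2.22.

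Downstream of the inflammasome, 6 of 12 tested genes of the interleukin-1 family and its cofactors were called higher and none lower. Il18, a cytokine that caspase-1 matures, was at 8.34 to 9.84 FPKM in the G799R libraries, above the wild-type range of 2.55 to 7.24 FPKM (log2 difference 0.93 ± 0.19 SE, limma adjusted p = 0.00148), and was not called under glomerular marker scaling (0.33, adjusted p = 0.170). Il18bp, which neutralises it and is known to be induced by interferon gamma, rose from 3.97 ± 0.77 to 16.3 ± 11 FPKM and was the member of this list called higher under glomerular marker scaling (1.01, adjusted p = 0.0115). Il1rap, a co-receptor, was 1.84-fold higher as deposited and not called under that scaling (0.19, adjusted p = 0.0943). Txnip, which binds NLRP3, was 1.47-fold higher as deposited and −0.13 under that scaling. Il1b, the other substrate, overlapped between groups, with 21.1 ± 7.63 FPKM in wild type and 28.8 ± 14.1 FPKM in G799R, and had no call (limma adjusted p = 0.324).

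The 2 tested genes of pores and rupture other than Gsdmd were both called lower. Gsdme, another pore-forming gasdermin, was 1.59-fold lower, at 1.25 ± 0.27 against 1.98 ± 0.15 FPKM (limma adjusted p = 0.00455), with no overlap. Ninj1, which tears the membrane after pores have formed, was 1.24-fold lower, at 27.8 ± 3.6 against 34.4 ± 4.76 FPKM (adjusted p = 0.0330), with overlapping groups. That call was lost without wild-type library 4 or 5 or G799R library 1, 3 or 4, each left out in turn, and without G799R libraries 3 and 4 together (−0.25, adjusted p = 0.130). The other 8 genes of this list were not tested, and Gsdma2, Gsdmc, Gsdmc2, Gsdmc3 and Ninj2 were listed at 0 in all libraries.

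Of 6 tested caspases outside the 8, 3 were called higher and none lower. Casp12, next to Casp4 on chromosome 9 at 5345430 to 5373032, rose 2.39-fold, with 6.96 to 10.7 FPKM in wild type and 15.4 to 25.9 FPKM in G799R. It was the caspase of this list called higher under glomerular marker scaling (0.53, adjusted p = 0.00210). Casp2 rose 1.27-fold as deposited (limma adjusted p = 0.0193) and turned to −0.30 under that scaling, where it was called lower. Its call was lost under median-of-ratios scaling (0.15, adjusted p = 0.159) and without wild-type library 2 (adjusted p = 0.0502). Casp9, the apoptosome caspase, was not called (log2 difference 0.16, limma adjusted p = 0.0585). Casp14 was listed at 0. Nlrp3, Il1b, Ifit1, Ifi44 and Mx1 were chosen after their values were seen.

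Of 11 tested genes of the apoptosome and execution list, 4 were called higher and 4 lower, and their median log2 difference was −0.03. The 4 with the smallest p were all lower. Bid, which links caspase-8 to mitochondria, fell 6.34-fold, from 14.8 ± 4.51 to 2.33 ± 0.86 FPKM (limma adjusted p = 2.05e-05). Cycs, the gene of cytochrome c, fell 2.51-fold, and Aifm1 and Endog, genes of mitochondrial death effectors, 2.2-fold and 1.96-fold. The tubule marker sums fell in the same G799R libraries, and their part in these falls was not tested. Nor was it tested for the lower Gsdme and Ninj1.

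Inhibitors of proteases were also read. Serpinb6b rose 2.14-fold to 50.6 ± 6.75 FPKM and stayed called under glomerular marker scaling (0.39, adjusted p = 0.0403). Serpinb9, an inhibitor of granzyme B, and Serpinb6a rose 1.68-fold and 1.58-fold as deposited and stood at 0.04 and −0.03 under that scaling. Birc5, the gene of survivin, was 1.06 ± 0.79 FPKM in wild type and 0.978 ± 0.714 FPKM in G799R, with no call.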

How the data were processed

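The authors deposited FPKM values for 22053 Ensembl identifiers in 10 libraries. The submitters' processing notes name HISAT2, RSEM, StringTie 1.3.1, Bowtie2 2.2.8 and fastp 0.18.0 without role or order, and the build and gene annotation were not given in the sources used here. TRIzol RNA and a NEBNext Ultra kit were used, per the labels' protocols. FPKM is relative, so RNA lost from 1 cell type raises the values of genes of the others.

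From these values, log2(FPKM + 1) of the 13117 genes averaging 0.5 FPKM or more was fitted with limma-trend (limma 3.58.1, R 4.3.3), two-sided, with Benjamini-Hochberg adjustment over all tested genes and a threshold of 0.05. The fit and the ratio test were checked on simulated data. Symbols matched 21963 identifiers, and positions are from GENCODE M21 (GRCm38), which may differ from the authors' build. Glomerular marker scaling used 70 markers. Ratios were tested with scipy 1.17.1. The rule for named genes took the 8 members, Irf1, Irf7 and Zbp1, up to 4 tested genes of each list with the smallest p, and the 3 genes most like each member, leaving out predicted and clone names, and some genes it took are not reported here. The members and lists were chosen with earlier results of these data known. Of the interferon list, Mx2 had no row in the table. Lymphocyte markers were near absent, at 5.03 to 7.89 FPKM summed in wild type and 5.36 to 13.6 FPKM in G799R, and 1 of 7 tested was called higher and 1 lower. Of 24 endothelial markers 20 and of 20 mesangial markers 15 were called higher, and of 20 distal tubule and collecting duct markers 19 were called lower. Alternatives were pseudocounts of 0.1 and 0.5, a 2 FPKM filter or none, other scalings and limma settings, a replicate block and leaving out libraries.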

Additional observations from a re-analysis of the deposited data

Results flagged for a closer look

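Of 96 groups of 5 libraries examined (each named gene and ratio in each genotype), 1 held a library set apart from the rest by a gap of more than 0.71 of the group's range, where chance gives about 1 in 20. Ripk1 in wild-type library 4 was 13.1 FPKM, and the other 4 wild-type libraries lay between 15.9 and 16.7 FPKM. The same library was the lowest of its group in Casp1, Casp8, Gsdmd and Mlkl, and it had the highest proximal tubule sum, 16501 FPKM. Without it the log2 difference of Ripk1 was 0.31, the lowest value among the single libraries left out, and still called by limma.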

How the results depend on the processing

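Over 21 alternatives per member, glomerular marker scaling changed the most results. The members called went from 7 higher and 0 lower to 2 higher and 1 lower, and genes of the pathway lists from 41 higher and 9 lower to 8 higher and 40 lower. Casp1 (0.38), Casp4 (0.060) and Ripk3 (0.14) lost their calls, as did Il1rap (0.19), Il18 (0.33), Tnfrsf10b (0.36), Rnf31 (0.20) and Serpinb9 (0.035), and Casp8 (−0.053), Pycard (−0.11) and Ripk1 (−0.29) changed sign, as did Casp2 (−0.30), Casp9 (−0.47), Txnip (−0.13), Ltbr (−0.32), Birc2 (−0.14), Tbk1 (−0.26) and Serpinb6a (−0.028). Over all genes it gave 525 higher and 8468 lower calls, and median-of-ratios scaling 3055 and 3346, against 5308 and 2537 as deposited. Median-of-ratios scaling also lost Casp4 (0.51) and Casp2 (0.15) and moved Casp9 to −0.0020; beyond the scaling itself, the cause was not tested. Without G799R libraries 3 and 4, the lowest of their group in Pycard, Pycard was called (0.67), a rise that the removal builds in. In that setting Birc5 turned to 0.16 and the ratio of Gsdmd to Casp1 to −0.0017, neither called. Leaving out 1 library at a time gave 0.54 to 0.87 for Casp4, −0.20 to 0.13 for Birc5 and −0.030 to 0.23 for the ratio of Gsdmd to Casp1, and 6 or 7 members called higher. Mlkl and Gsdmd kept their calls under all 21.

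Libraries of the 2 groups share replicate numbers, but same-numbered libraries did not deviate together (r = −0.085 to 0.048 over tested genes), and no library correlated best with its own number. With the replicate block 7 members were again called higher and 0 lower (4937 and 2451 over all genes; Mlkl 1.63, adjusted p = 0.00427). For the ratios a sign-flip test of 5 pairs allows no p below 0.0625. Absolute depth is unknown, so the counting error of low genes such as Casp1 and Pycard was not estimated.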

Other observations

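For the other 6 members, the 3 genes most like each in library-to-library pattern are given with Pearson's r over 10 libraries and no test. For Casp8 they were Zfp281 (0.97), Cnpy3 (0.96) and Cacna2d1 (0.95), and for Ripk1 they were Camk2g (0.99), Cryzl1 (0.96) and Cacnb3 (0.94). For Ripk3 they were Tsn, Dynll1 and Nelfb (0.94, 0.94 and 0.92), and for Casp1 Hivep1, Nrf1 and Clock (0.97, 0.96 and 0.95). Casp4 was most like Khsrp (0.94) and then Fam216a and Zfp592 (0.88 and 0.86). Pycard was most like Card19 and Prorsd1 (0.94 each) and Rsl24d1 (0.88).

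The caspase genes side by side on chromosome 9 did not share a library order. In G799R Casp1 ran 2, 3, 4, 5 and 1 from highest to lowest and Casp4 ran 2, 5, 1, 4 and 3, while in wild type Casp4 was highest in library 2 (10.5 FPKM) and Casp1 in library 3 (1.81 FPKM).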
